A study of Mus musculus with 3 samples.

Results

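Among the common lymphoid progenitors (CLP) of mouse bone marrow, 91 cells had no transcript of Ebf1 and none of Ly6d in their libraries, and these cells are described here. They were chosen by measured values: from CLP cells with 500 or more genes, at most 10% mitochondrial transcripts and 4000 or more unique molecular identifiers (UMIs, tags that each mark a captured transcript), those with 0 UMIs of Ebf1 and of Ly6d, at most 1 of Mpo and under 8 of Irf8 were taken. They made up 13.4% of 681 such cells, of 2701 barcodes deposited for 3 populations (95% exact binomial interval 10.9 to 16.2%). The levels of these 4 genes are therefore a description and no finding. All other genes were measured in the same cells but played no part in the choice.

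CLP were sorted from C57BL/6J bone marrow as cKit+ Sca1+ Flt3+/- IL7Ra+ B220- cells. Lymphoid-primed multipotent progenitors (LMPP), an earlier population that can still make myeloid cells, were sorted as cKit+ Sca1+ Flt3+ IL7Ra- B220- cells. Pro-B cells, which are committed to the B lineage, were sorted as cKit+ Sca1- Flt3- IL7Ra+ B220+ cells. Each population was captured, from about 3000 cells loaded per the labels, as 1 library of single cells with the 10x Chromium 3-prime v2 chemistry, with no treatment named for the sorted cells, and the sources used here do not give the age, sex or number of the mice. No population was captured a second time. For that reason the values below carry no test and no p-value, and a difference between populations cannot be told apart from one between libraries.

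CLP are the marrow progenitors from which B cells and other lymphoid cells arise. Ebf1 is the transcription factor that specifies the B lineage, and Ly6d is a surface protein whose appearance divides CLP into cells that keep several lymphoid fates and cells biased to B cells. Mpo, the myeloperoxidase of neutrophil granules, and Irf8, a transcription factor of dendritic cells and monocytes, mark other directions of differentiation. Ebf1 acts downstream of the E proteins and interleukin-7 signalling, and with Pax5 it turns on the genes of the pre-B receptor.

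The 91 cells held 638788 UMIs, with a median of 6876 UMIs (range 4032 to 12255) and 2049 genes per cell. The 590 other CLP cells held 4571911 UMIs, with medians of 7461 UMIs and 2156.5 genes. Mitochondrial genes took 2.99% of UMIs in the 91 cells and 3.07% in the others, and ribosomal protein genes took 42.9% in the 91 cells and 42.0% in the others. Levels below are sums over the cells of a group per 1000000 UMIs (CPM). At this depth 50 CPM is 31.9 UMIs in the 91 cells, and the floor of 3 UMIs that stands in for a count of 0 is 4.70 CPM there and 0.656 CPM in the other CLP cells. Intervals are given at 95%, and they hold counting error alone, not differences between mice or captures. A gene is called different at a ratio of 2-fold or more with 50 CPM or more in the higher group. Genes of a list count as measured with 25 or more UMIs over both groups, so a gene that is low in the 91 cells can enter through its level in the others.

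A count of 0 does not show that a cell lacks a transcript. Ebf1 was at 0 in 40.5% of CLP cells, against 98.8% of LMPP cells and 2 of 699 pro-B cells. Ly6d was at 0 in 27.8% of CLP cells, against 95.2% of LMPP and 59.9% of pro-B cells, so most sorted pro-B cells also had none. By the same limits on the 4 genes 417 of 520 LMPP cells and 2 of 699 pro-B cells would have been taken. The share taken among CLP was 16.4% of cells with 4000 to 6000 UMIs, 15.8% of those with 6000 to 8000 and 9.13% of deeper cells, so shallower cells were taken more often. Just outside the limits lay 24 cells with 1 UMI of Ebf1, 53 with 1 of Ly6d, 4 with 2 of Mpo and 4 with 8 or 9 of Irf8, which met the other limits. Just inside, 20 of the 91 cells had 1 UMI of Mpo, 71 had none, 1 had 6 or 7 of Irf8 and 42 had none.

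**Figure D1:**
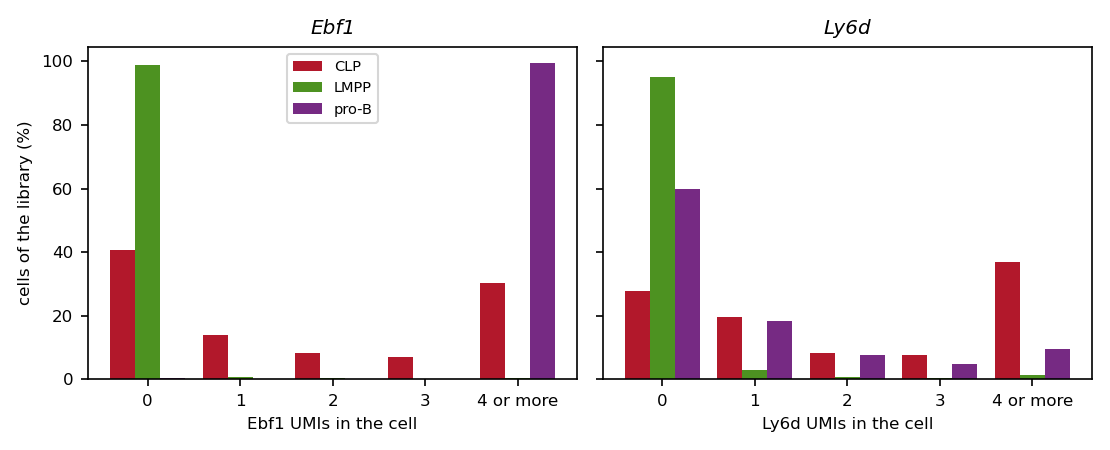
Share of cells (%) by number of Ebf1 UMIs (left) and Ly6d UMIs (right) in the CLP, LMPP and pro-B libraries, for cells of 4000 or more UMIs. In CLP 40.5% of cells had 0 Ebf1 UMIs and 27.8% had 0 Ly6d UMIs, while 98.8% and 95.2% of LMPP cells had 0.

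The other CLP cells fell into 4 classes by the same genes: 91 with Ly6d and no Ebf1, 65 with Ebf1 and no Ly6d, 264 with both, and 170 with Mpo at 2 or more or Irf8 at 8 or more. Irf8 stood at 168 CPM in the 91 cells and 502 CPM in the other CLP cells, a difference the choice made. Of the CLP barcodes 3 also occur in the LMPP library and 2 in the pro-B library, and 1 of the 91 cells has a barcode found in LMPP. Left out, it moved the share to 13.2% and left 12 genes called higher and 27 lower. Scrublet called 11 of the 681 cells doublets, none of them among the 91.

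The label was checked with 3 markers of early lymphoid progenitors. Cd34, a surface sialomucin of early progenitors, stood at 318 CPM in the 91 cells and 178 CPM in the other CLP cells (log2 ratio 0.83, interval 0.60 to 1.06). Flt3, the cytokine receptor used in the sort, stood at 316 CPM in the 91 cells and 296 CPM in the others (log2 0.10, −0.12 to 0.31). Dntt, the terminal transferase that adds bases at antigen receptor junctions, stood at 1742 CPM in the 91 cells and 1851 CPM in the others (log2 −0.09, −0.18 to 0.00). Only Cd34 had an interval that lay wholly above 0. In single cells, the 91 cells had 0 to 10 Cd34 UMIs (median 2), 0 to 7 of Flt3 (median 2) and 0 to 32 of Dntt (median 11), against 0 to 10 (median 1), 0 to 11 (median 2) and 0 to 59 (median 13) for the same markers in the other CLP cells, so the values of the 91 cells lay within the range of the others.

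To compare shares of cells, every cell was thinned at random to 4000 UMIs, which left out no further cell. Cd34 was then seen in 63.7% of the 91 cells (53.0 to 73.6%) and 43.4% of the others (39.3 to 47.5%). It was seen in 84.4% of LMPP cells and in none of 699 pro-B cells, which allows a share of cells with a UMI of up to 0.526%. At least 1 UMI of Dntt was found in 95.6% of the 91 cells. All 3 markers were found together in 38 of 91 cells (41.8%), against 185 of 590 others (31.4%), and none of the 3 in 2 of the 91 cells and 7 of the others. Of the 91 cells 38 had 2 of the markers and 13 had 1, which alone does not place a cell, since Dntt was also found in pro-B cells (1217 CPM). The 2 with none belong to a group of 7 cells described further on.

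**Figure D2:**
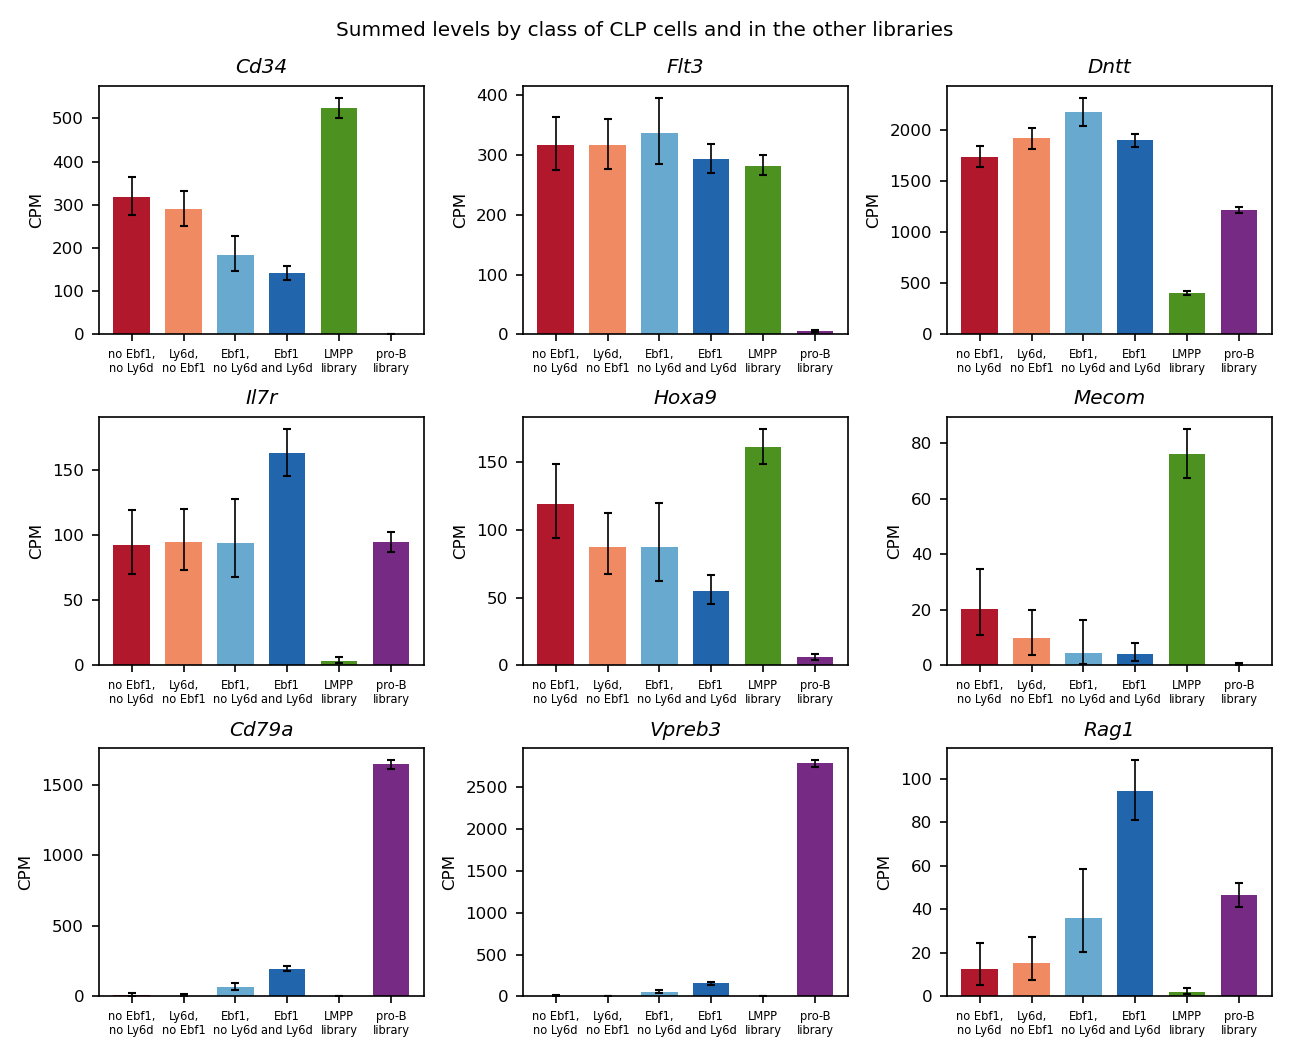
Summed level (CPM) of 9 genes in CLP cells by Ebf1 and Ly6d class and in the LMPP and pro-B libraries. Bars are levels and error bars exact 95% Poisson intervals of the summed count (counting error only). Cd34 stood at 318 CPM in cells without Ebf1 and Ly6d, 141 CPM in CLP cells with both and 524 CPM in LMPP, and Cd79a at 12.5, 198 and 1.56 CPM.

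Il7r, the receptor used in the sort, was present in the 91 cells, at 92.4 CPM against 135 CPM in the other CLP cells (log2 −0.54, −0.96 to −0.16) and 3.64 CPM in LMPP. It was seen in 34.1% of the 91 cells (24.5 to 44.7%), 37.8% of the other CLP cells and 0.769% of LMPP cells after thinning. CLP were sorted as IL7Ra+ and LMPP as IL7Ra-, so the difference from LMPP follows the sort and does not place the cells. Ly6a, which encodes Sca1, was lower, at 20.4 CPM in the 91 cells and 45.7 CPM in the others (log2 −1.17, −2.10 to −0.36), and Kit stood at 34.4 CPM in the 91 cells and 27.1 CPM in the others.

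Across all genes the 91 cells lay close to the rest of CLP. Of 2564 genes at 50 CPM or above in 1 of the groups, 93.1% were within 1.5-fold, 13 (0.507%) were called higher and 27 (1.05%) lower (all 4 genes of the choice among the 27), and the median log2 ratio was −0.003. Under the rule for lists, 203 of 9176 genes (2.21%) were 2-fold or more higher and 577 (6.29%) lower, and the median was −0.02. The counts over all genes here and below keep the 4 genes in. These shares are the background against which each list is read.

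**Figure D3:**
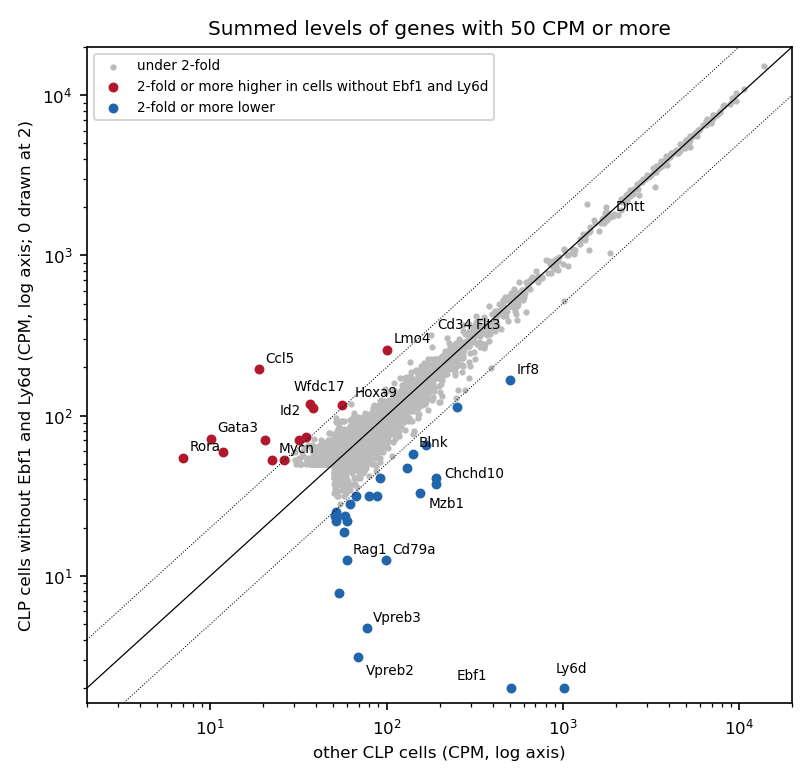
Level of 2564 genes in the 91 CLP cells without Ebf1 and Ly6d (vertical, CPM, log axis) against the 590 other CLP cells (horizontal, CPM, log axis), where red points are the 13 genes 2-fold or more higher, blue points the 27 that are 2-fold or more lower, and dotted lines mark 2-fold. Ebf1, Ly6d, Mpo and Irf8 are low by the choice of the cells. Among the other labelled genes Vpreb2, Vpreb3, Cd79a and Chchd10 lie farthest below the diagonal, followed by Rag1. Gimap4, which is not labelled, also lies farther below it than Rag1.

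Genes of stem cells and multipotent progenitors leaned to the higher side. All 12 measured genes of the list of 16 had ratios above 0, with a median log2 of 0.51, and 1 of 12 was 2-fold or more higher. The other 4, Gata2, Myct1, Nkx2-3 and Rab38, had under 25 UMIs over both groups. Against the CLP cells with Ly6d and no Ebf1, 5 of 9 measured genes of the list had ratios above 0, none passed 2-fold and the median was 0.10. The gene past 2-fold against all other CLP cells was Mecom, a transcription factor of haematopoietic stem cells, at 20.4 CPM from 13 UMIs in the 91 cells against 4.59 CPM from 21 UMIs in the other CLP cells (log2 2.15, 1.03 to 3.21). After thinning it was seen in 9.89% of the 91 cells (4.62 to 17.9%) and 1.86% of the others (0.934 to 3.31%). Hoxa9, a homeobox factor of early progenitors, stood at 119 CPM in the 91 cells and 62.6 CPM in the others (log2 0.93, 0.54 to 1.30). Lmo2, a bridging factor of stem cell transcription complexes, stood at 268 CPM in the 91 cells and 182 CPM in the others (log2 0.56, 0.31 to 0.80), and Ifitm3, a membrane protein of early progenitors, at 304 CPM in the 91 cells and 221 CPM in the others. These 4 genes and Cd34 had intervals above 0. Meis1, a cofactor of Hox proteins, had a log2 ratio of 0.12 (−0.40 to 0.60), Mn1 of 0.17 and Adgrg1 of 0.04, all with intervals that include 0. Hlf, a factor of stem cells, was counted only 6 times in the 91 cells and Gata2 not at all.

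Other genes with the highest ratios included Wfdc17, a small secreted protein of myeloid cells, at 119 CPM in the 91 cells against 36.7 CPM in the other CLP cells (log2 1.70, 1.28 to 2.09). Gcnt2, an enzyme that branches glycan chains, stood at 70.4 CPM in the 91 cells and 31.9 CPM in the others (log2 1.14, 0.63 to 1.63), and Mycn, a transcription factor of cell growth, at 53.2 CPM in the 91 cells and 22.5 CPM in the others (log2 1.24, 0.64 to 1.81). In LMPP these 3 genes stood at 384, 173 and 61.6 CPM, and in pro-B cells at 0, 0 and 1.93 CPM, so all 3 stood far higher in LMPP than in pro-B cells. P2ry14, a receptor for UDP-sugars, had a log2 ratio of 0.89 (0.35 to 1.39) and Lztfl1, a protein of ciliary transport, of 1.04 (0.65 to 1.42). Part of the Lztfl1 count lay in the 7 cells described further on. Its mean per cell was 0.813 UMIs in the 91 cells, 0.679 in the 84 cells left without the 7, and 0.436 in the other CLP cells. Also among the 15 highest, Zfand1, Cryzl1, Impact and AA467197 had log2 ratios of 0.91 to 1.02, and Furin, Id2, Lmo4 and Tox are taken up with the 7 cells that carry them.

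The early lymphoid list did not stand apart. Of 11 measured genes 0 were 2-fold or more higher and 1 lower, Rag1, and the median log2 ratio was 0.10. Satb1, a chromatin organiser of lymphoid priming, stood at 252 CPM in the 91 cells and 255 CPM in the other CLP cells. Cd27, a costimulatory receptor, stood at 374 CPM in the 91 cells and 292 CPM in the others (log2 0.36, 0.15 to 0.56), and Ccr9, a chemokine receptor used to enter the thymus, at 61.1 CPM in the 91 cells and 39.8 CPM in the others (log2 0.62, 0.08 to 1.12). Both had intervals just above 0, while Ly86, an accessory protein of the receptor Cd180, lay below at −0.62 (−1.16 to −0.13). The 2 subunits of the V(D)J recombinase differed from each other: Rag1 stood at 12.5 CPM in the 91 cells against 59.5 CPM in the others (log2 −2.25, −3.47 to −1.25), whereas Rag2 stood at 40.7 CPM in the 91 cells and 36.7 CPM in the others (log2 0.15, −0.51 to 0.75). The Rag1 count in the 91 cells was 8 UMIs and the Rag2 count 26.

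The genes of the B cell surface and the pre-B receptor held the largest differences. Of 10 measured genes of the list of 13, 0 were higher and 8 were 2-fold or more lower, with a median log2 ratio of −2.81 (Vpreb1 at its bound), against 6.29% of all measured genes lower. Those not measured include Bst1 and Fcrla, which had under 25 UMIs over both groups, and Bst1 was at 0 in the 91 cells. Vpreb2, a part of the surrogate light chain, had 2 UMIs in the 91 cells and 315 in the others, or 3.13 CPM in the 91 cells and 68.9 CPM in the others (log2 −4.46, −7.51 to −2.59). Its near-identical copy Vpreb1 had 0 UMIs in the 91 cells and 227 in the others, at least 10.6-fold lower at the floor of 3 UMIs, and the counting may divide reads between the 2 genes. Igll1, the other part of the surrogate light chain, had 1 UMI in the 91 cells and 137 in the others, and Vpreb3, an endoplasmic reticulum partner of the pre-B receptor, had 3 UMIs in the 91 cells and 354 in the others. The surrogate light chain was thus close to absent from the 91 cells at this depth. Low counts were not particular to them: the CLP cells with Ly6d and no Ebf1 had 0 UMIs of Vpreb2 and 2 of Vpreb3. Most UMIs of the others lay in the class with both, 261 of Vpreb2 and 315 of Vpreb3.

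Cd79a, which signals below the B cell receptor, stood at 12.5 CPM in the 91 cells against 99.5 CPM in the other CLP cells (log2 −2.99). After thinning it was seen in 5.49% of the 91 cells (1.81 to 12.4%), 20.0% of the others (16.8 to 23.5%) and 0.385% of LMPP cells, a population before B specification. Its partner Cd79b differed less, at 36.0 CPM in the 91 cells and 56.9 CPM in the others (log2 −0.66, −1.34 to −0.04). Blnk, the adaptor below the pre-B receptor, stood at 57.9 CPM in the 91 cells and 141 CPM in the others (log2 −1.28, −1.80 to −0.81) and was still seen in 16.5% of the thinned 91 cells, against 39.2% of the others and 2.69% of LMPP cells. Mzb1, a chaperone of immunoglobulin assembly, stood at 32.9 CPM in the 91 cells and 155 CPM in the others (log2 −2.23, −2.93 to −1.61), and Blk, a kinase of B cells, at 4.70 CPM in the 91 cells and 28.9 CPM in the others. Over the B surface list, Rag1, Rag2 and Pax5 together, 3 or more UMIs were found in 6 of the 91 thinned cells (6.59%, 2.46 to 13.8%) and in 264 of 590 others (44.7%, 40.7 to 48.9%). At least 1 such UMI was found in 52 of the 91 cells (57.1%) and 499 of the others (84.6%), so the program was low in the 91 cells and not uniformly at 0.

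**Figure D4:**
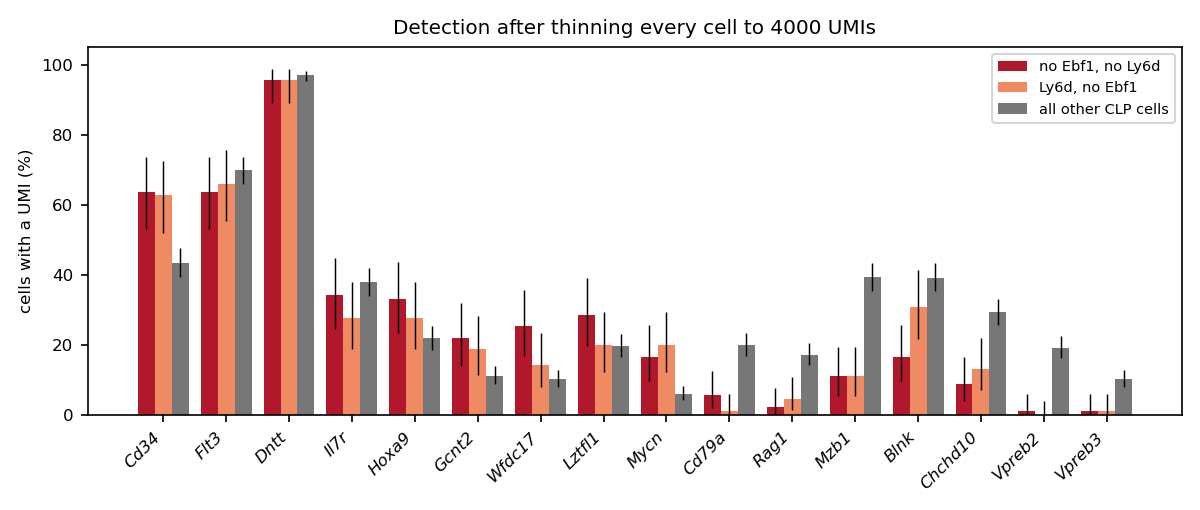
Share of cells (%) with at least 1 UMI of 16 genes after every cell was thinned to 4000 UMIs, in CLP cells without Ebf1 and Ly6d, with Ly6d and no Ebf1, and in all other CLP cells. Error bars are exact 95% binomial intervals. Cd34 was seen in 63.7, 62.6 and 43.4% of these cells and Mzb1 in 11.0, 11.0 and 39.3%.

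The 15 lowest genes by the naming rule were these B lineage genes with others of mixed role. Gimap4, a GTPase of lymphocytes, stood at 7.83 CPM in the 91 cells against 53.8 CPM in the other CLP cells (log2 −2.78, −4.42 to −1.54), and Chchd10, a mitochondrial protein, at 37.6 CPM in the 91 cells and 192 CPM in the others (log2 −2.35). Tfrc, the transferrin receptor, had a log2 ratio of −1.62 and Herpud1, a protein of the unfolded protein response, of −1.49. Bfsp2, Tmem121, Arl5c, Hexa and Myl4 had log2 ratios of −1.48 to −1.17. In pro-B cells Chchd10 stood at 1908, Bfsp2 at 715 and Arl5c at 199.8 CPM, above all CLP cells, whereas Gimap4, Tfrc, Tmem121 and Hexa were lower in pro-B than in the other CLP cells.

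Because these genes were low together, the 250 bases before their RefSeq starts were searched for the letters of 2 motifs, CAGGTG with its reverse CACCTG (an E-box bound by E proteins) and CCCNNGGG (the core bound by Ebf1, which reads the same on both strands). Each motif was counted on its own, also where the 2 overlap. Of the 15 lowest genes 13 had an entry, and Mzb1 and Arl5c did not. The E-box letters were found in 7 of 13 (Vpreb2, Cd79a, Rag1, Tfrc, Bfsp2, Tmem121 and Blnk) and in 19.4% of 27025 genes with a promoter, and CCCNNGGG in 2 of 13 (Gimap4 and Hexa) and 13.4%. Of the 15 highest genes 11 had an entry, and 2 of 11 held each motif. A match describes letters only, and neither motif was tested as a site. Only these exact letters were searched, so a gene without a match may still hold a variant of either site. The stretches of 120 bases around the E-box are shown for Cd79a, Vpreb2, Rag1 and Blnk, the B lineage genes among those 7, with the E-box in capitals (RefSeq, build GRCm38.p6, gene strand, 5′ to 3′). They lie at chr7:24897286-24897405 (plus strand) for Cd79a, chr16:17980315-17980434 (plus) for Vpreb2, chr2:101649605-101649724 (minus) for Rag1 and chr19:40994319-40994438 (minus) for Blnk.
Cd79a: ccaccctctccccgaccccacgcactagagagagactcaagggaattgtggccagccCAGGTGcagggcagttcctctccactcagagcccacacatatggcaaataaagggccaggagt
Vpreb2: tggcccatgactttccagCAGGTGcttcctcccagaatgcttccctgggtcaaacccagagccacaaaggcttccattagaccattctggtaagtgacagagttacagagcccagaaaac
Rag1: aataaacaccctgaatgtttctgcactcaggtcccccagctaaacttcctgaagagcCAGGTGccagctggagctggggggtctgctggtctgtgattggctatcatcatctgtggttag
Blnk: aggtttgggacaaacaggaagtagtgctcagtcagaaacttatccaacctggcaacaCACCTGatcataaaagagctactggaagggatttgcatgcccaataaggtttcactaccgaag

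The regulators of the B lineage divided. The log2 ratios of 3 that LMPP also expressed had intervals that include 0: Tcf3, an E protein gene, stood at 113 CPM in the 91 cells and 113 CPM in the other CLP cells (log2 −0.00, −0.38 to 0.35), Bcl11a at 205 CPM in the 91 cells and 211 CPM in the others (log2 −0.04, −0.31 to 0.22), and Ikzf1, which encodes Ikaros, at 171 CPM in the 91 cells and 200.4 CPM in the others (log2 −0.23, −0.53 to 0.06). Pax5, the factor that commits cells to the B lineage, had 2 UMIs in the 91 cells and 68 in the others (log2 −2.25, −5.32 to −0.34), and Foxo1, an activator of the Rag genes and Il7r, stood at 18.8 CPM in the 91 cells and 41.1 CPM in the others (log2 −1.13, −2.11 to −0.29). Of 10 measured genes of the list of 12, 3 were 2-fold or more lower (Pax5, Foxo1 and Spib), 1 was higher, and the median log2 ratio was −0.49. Spib, also a gene of plasmacytoid dendritic cells, had 1 UMI in the 91 cells and 33 in the others, and 26 of the 33 lay in the class with Mpo or Irf8 that the choice left out. The higher one was Ikzf3, which encodes Aiolos, with 16 UMIs in the 91 cells and 9 in the others, and it was no longer measured once the 7 cells described next were left out. The list then had a median of −1.12.

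Of the T lineage and Notch list 4 of 11 measured genes were 2-fold or more higher and 0 lower, with a median log2 ratio of 0.39, against 2.21% of all measured genes higher. Gata3, a factor of T cells and innate lymphoid cells, had 46 UMIs in the 91 cells and 46 in the 590 others, or 72.0 CPM in the 91 cells and 10.1 CPM in the others (log2 2.84, 2.22 to 3.46). Tcf7, a target of Notch signals, had 16 UMIs in the 91 cells and 18 in the others, Bcl11b, which commits T cells, 22 in the 91 cells and 10 in the others, and Ptcra, a chain of the pre-T receptor, 12 in the 91 cells and 32 in the others. The Ptcra difference turned with the limits: its log2 ratio was −1.07 in cells with 6000 UMIs or more and −1.60 with Irf8 at most 1 and Mpo at 0. Of the 46 Gata3 UMIs of the 91 cells, 44 lay in 7 cells. Notch1, the receptor that directs the T lineage, was spread more evenly, at 189 CPM in the 91 cells and 145 CPM in the others (log2 0.39, 0.10 to 0.67), and was seen in 50.5% of the thinned 91 cells and 42.9% of the others. Its target Hes1 had a log2 ratio of −0.15 (−0.54 to 0.22), and Cd3e, Cd3g and Dtx1 were at 0 in the 91 cells.

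These 7 cells had 5 or more UMIs in all of Gata3, Rora, Ccl5, Il18r1, Icos and Zbtb16, genes of innate lymphoid and T cells, a limit set after the data were seen. They made up 7.69% of the 91 cells (3.15 to 15.2%), against 7 of 590 other CLP cells (1.19%, 0.478 to 2.43%) and 3 of 520 LMPP cells (0.577%). Of the 7 other CLP cells 5 lay in the class with Ly6d and no Ebf1, or 5.49% of its 91 cells (1.81 to 12.4%), so such cells were also found there. The 7 had 9 to 107 such UMIs and every other of the 91 had 3 or fewer, so the limit cut through a gap. They held 95.7% of the Gata3 UMIs of the 91 cells, 94.3% of Rora and 97.6% of the chemokine Ccl5, which the limit itself largely fixes. Of genes that the limit did not use they held 69.0% of the UMIs of Id2, an inhibitor of E proteins, 70.9% of Lmo4, 62.2% of the protease Furin and 51.1% of Tox, a factor of developing T and innate lymphoid cells. They were not alike: 5 of them had 4 to 14 Gata3 UMIs, 1 had 104 Ccl5 UMIs and no Gata3, and 1 had 12 Ccl5 UMIs beside 20 of Dntt. Of 13 innate lymphoid markers 6 were at 0 in all 91 cells (Il2rb, Ncr1, Tbx21, Eomes, Il1rl1 and Xcl1), so the cells are called here by their genes only.

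Without these cells in both groups 5 of 2547 genes (0.196%) were called higher and 29 (1.14%) lower, and under the rule for lists 181 of 9117 (1.99%) were higher and 647 of 9117 (7.10%) lower. The log2 ratio of Furin was then 0.50, of Id2 0.41, of Lmo4 −0.05, of Tox 0.22 and of Gata3 0.22, against 1.79, 1.53, 1.35, 1.07 and 2.84 with them. Wfdc17, Mycn, Gcnt2, Hoxa9 and Cd34 stood at 1.76, 1.25, 1.26, 0.97 and 0.92 without them, and Cd79a and Rag1 at −3.10 and −2.35. The stem cell and B surface differences were thus as large in the 84 remaining cells. Of the T lineage genes Ptcra had 12 UMIs there, Bcl11b 2 and Tcf7 3, and Hes1 had a log2 ratio of −0.87.

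Of the marker lists of other cell types, that of innate lymphoid cells summed to 344 CPM in the 91 cells and 264 CPM in the others, with 3 of 5 measured genes 2-fold or more higher (Il18r1, Rora and Icos) and a median log2 ratio of 1.07. Without the 7 cells it summed to 230.1 CPM in the 84 cells and 249 CPM in the others, and 0 of 4 measured genes were higher. The list of plasmacytoid dendritic cells summed to 842 CPM in the 91 cells and 1066 CPM in the other CLP cells, with Siglech at 23.5 CPM in the 91 cells and 52.7 CPM in the others. The other CLP cells include the class with Mpo or Irf8 that the choice left out, where this list summed to 1888 CPM. It summed to 844 CPM with Ly6d alone, 855 CPM with Ebf1 alone and 600.2 CPM with both, so the 91 cells were not low among these classes. The neutrophil and monocyte list summed to 214 CPM in the 91 cells and 262 CPM in the others, with Elane, Cebpe, S100a9, Ms4a3 and Ly6c2 at 0 in the 91 cells, and the pro-B list to 57.9 CPM in the 91 cells and 257 CPM in the others. With Ly6d alone the neutrophil and monocyte list summed to 246 CPM, with Ebf1 alone to 218 CPM and with both to 187 CPM. In the class with Mpo or Irf8 it summed to 387 CPM. The lists of erythroid and megakaryocytic cells, mast cells and basophils, mature T cells and stroma each summed to at most 17.2 CPM in either group. Single genes past 2-fold on the higher side were Prtn3 of the neutrophil list, from 11 UMIs in the 91 cells and 29 in the others, and Lepr, the leptin receptor, of the stromal list, from 7 UMIs in the 91 cells and 23 in the others. Lepr was lower in the 91 cells than in cells with Ly6d alone (log2 −1.35), where the stromal list summed to 27.8 CPM, against 12.5 CPM in the 91 cells. The conventional dendritic list summed to 297 CPM in the 91 cells and 373 CPM in the others, nearly all of it from the protease inhibitor gene Cst3 (282 CPM in the 91 cells and 361 CPM in the others).

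Genes of G2/M were lower in the 91 cells than in the other CLP cells, and part of this lay with the class of Mpo or Irf8 that the choice left out. Of 15 measured G2/M genes 7 were 2-fold or more lower and 0 higher, with a median log2 ratio of −0.94. Mki67, a protein of dividing chromosomes, had 2 UMIs in the 91 cells and 97 in the others (log2 −2.76, −5.83 to −0.87), and Top2a, the mitotic topoisomerase, stood at 50.1 CPM in the 91 cells and 82.9 CPM in the others (log2 −0.73, −1.30 to −0.20). Of 18 S phase genes 2 were lower, Rrm2 and Tyms, with a median of −0.16, and Mcm2, Mcm3 and Mcm5, parts of the replicative helicase, had log2 ratios of 0.37, 0.07 and 0.19. After thinning, 3 or more G2/M UMIs were found in 4 of 91 cells (4.40%, 1.21 to 10.9%) against 71 of 590 others (12.0%, 9.52 to 14.9%), and the intervals overlap. By class the G2/M share was 8.79% with Ly6d alone, 9.23% with Ebf1 alone, 8.33% with both and 20.6% with Mpo or Irf8. The 91 cells thus had the lowest G2/M share, with an interval that overlaps those of the classes with Ly6d alone, Ebf1 alone and both. Top2a stood at 26.5 CPM with Ly6d alone, 85.3 CPM with Ebf1 alone, 49.0 CPM with both and 157 CPM with Mpo or Irf8, so for this gene the 91 cells were not the lowest class. Against CLP cells within the limits on Mpo and Irf8 the G2/M list had a median of −0.63 over 13 measured genes. In S phase 3 or more UMIs were found in 61 of 91 cells against 367 of 590 others (62.2%).

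The class nearest to the 91 cells in the rule, the 91 CLP cells with Ly6d and no Ebf1, was also near in the other genes. Of 2590 genes 14 (0.541%) were called higher and 16 (0.618%) lower in the cells without both, and the median log2 ratio was −0.005. Under the rule for lists 89 of 5294 (1.68%) of genes were higher and 88 of 5294 (1.66%) lower. Cd34 stood at 318 CPM in cells without both against 289.6 CPM in cells with Ly6d alone (log2 0.13, −0.15 to 0.42), Cd79a at 12.5 CPM in cells without both and 5.57 CPM in cells with Ly6d alone, Rag1 at 12.5 CPM in cells without both and 15.3 CPM in cells with Ly6d alone, and Mzb1 at 32.9 CPM in cells without both and 32.0 CPM in cells with Ly6d alone. Of the B surface list 4 genes were measured, none of them past 2-fold, with a median of −0.26. In the CLP cells with Ebf1 and no Ly6d, by contrast, Cd79a stood at 69.6 CPM and Rag1 at 35.9 CPM, and in cells with both at 198 and 94.0 CPM. Both genes were higher in each class with Ebf1 than in the class with Ly6d alone. The classes differ in depth, with a median of 6876 UMIs in the 91 cells, 7888 with Ly6d alone, 6567 with Ebf1 alone and 6899.5 with both.

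Differences between the cells without both and those with Ly6d alone lay in other genes. Blnk stood at 57.9 CPM in cells without both against 102 CPM in cells with Ly6d alone (log2 −0.81, −1.42 to −0.22), Rag2 at 40.7 CPM in cells without both and 12.5 CPM in cells with Ly6d alone (log2 1.70, 0.56 to 2.98) and Tfrc at 18.8 CPM in cells without both and 64.0 CPM in cells with Ly6d alone (log2 −1.77, −2.82 to −0.83). Rag2 was thus lowest in the class with Ly6d alone. Tmem245, a membrane protein, had the lowest ratio (log2 −2.06), but the share of cells with a UMI was 24.2% without both and 26.4% with Ly6d alone, so the level rests on few cells with many UMIs. Mycn and Myl4 differed from their place against all other CLP cells, with log2 ratios of −0.47 (−1.14 to 0.18) and 0.55 (−0.35 to 1.47).

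Against LMPP the 91 cells stood apart in both directions. Of 2603 genes 82 (3.15%) were called higher and 62 (2.38%) lower in the 91 cells, with 83.3% within 1.5-fold. Under the rule for lists 380 of 8932 (4.25%) of genes were higher and 737 of 8932 (8.25%) lower. Dntt stood at 1742 CPM in the 91 cells against 407 CPM in LMPP (log2 2.10, 1.98 to 2.21), Notch1 at 189 CPM in the 91 cells and 88.1 CPM in LMPP (log2 1.10, 0.79 to 1.41) and Blnk at 57.9 CPM in the 91 cells and 8.58 CPM in LMPP (log2 2.76, 2.04 to 3.48). Cox6a2, a subunit of cytochrome oxidase, stood at 391 CPM in the 91 cells and 55.9 CPM in LMPP and was seen in 79.1% of the 91 cells and 14.6% of LMPP cells, unthinned. Of the T lineage and Notch list 5 of 7 measured genes were higher and 0 lower, among them Lck, a kinase of T cell receptors, at 139 CPM in the 91 cells and 58.0 CPM in LMPP. Of these 5, Gata3 and Tcf7 rest on the 7 cells: without them Gata3 stood at 3.36 CPM in the 84 cells against 6.76 CPM in LMPP, and Tcf7 at 5.04 CPM in the 84 cells against 4.42 CPM in LMPP. Gata3 was among the genes of the limit that set the 7 cells, so its low level without them follows from that limit. The LMPP levels also kept the 3 of 520 LMPP cells that met the same limit, so the 2 sides are not alike. Lck and Notch1 stood at 136 and 197 CPM in the 84 cells.

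Stem and multipotent genes were lower in the 91 cells than in LMPP, 13 of 16 by 2-fold or more, with a median log2 ratio of −1.69. Hlf stood at 9.39 CPM in the 91 cells against 122 CPM in LMPP (log2 −3.70, −5.15 to −2.57), Mecom at 20.4 CPM in the 91 cells and 75.9 CPM in LMPP, Ifitm1 at 89.2 CPM in the 91 cells and 599.6 CPM in LMPP and Cd34 at 318 CPM in the 91 cells and 524 CPM in LMPP (log2 −0.72, −0.94 to −0.51). Prtn3, a protease of neutrophil granules, stood at 17.2 CPM in the 91 cells and 302 CPM in LMPP (log2 −4.13, −5.14 to −3.29). Hoxa9 and Cd34 were within 2-fold of LMPP and Hlf, Cd63 and Prtn3 were not. With LMPP cells restricted by the same limits, 89 of 2613 genes (3.41%) were higher and 70 (2.68%) lower.

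Against pro-B cells the 91 cells differed most, with 371 of 3013 genes (12.3%) called higher and 728 (24.2%) lower. Under the rule for lists 1351 of 9098 (14.8%) of genes were higher and 1673 of 9098 (18.4%) lower. All 13 B surface genes were 2-fold or more lower in the 91 cells, with a median log2 ratio of −5.11, and so were all 18 G2/M genes, with a median of −4.26. Igll1 stood at 1.57 CPM in the 91 cells against 2387 CPM in pro-B cells, and Cd79a at 12.5 CPM in the 91 cells against 1645 CPM in pro-B cells. In the other direction Cd34 was at 0 in 699 pro-B cells and at least 659.6-fold higher in the 91 cells. Flt3 was 53.2-fold higher, which follows the sort, since pro-B cells were taken as Flt3-. The chemokine Ccl4 stood at 283 CPM in the 91 cells, 226 CPM in the other CLP cells, 378 CPM in LMPP and 0.642 CPM in pro-B cells.

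A measure over many genes, at 4-fold, placed the median of the cells between the LMPP and pro-B libraries. Genes 4-fold or more apart between the pro-B and LMPP libraries, with the 4 genes of the choice left out, gave 227 higher in pro-B and 128 higher in LMPP. The pro-B genes took a median of 0.974% of UMIs in the 91 cells (range 0.555 to 6.53%), against 1.09% in cells with Ly6d alone, 1.18% with Ebf1 alone, 1.47% with both, 0.819% in LMPP and 8.89% in pro-B cells. The LMPP genes took 1.35% (0.747 to 2.03%) in the 91 cells, against 1.19, 1.14 and 1.09% in those 3 classes, 1.83% in LMPP and 0.159% in pro-B cells. In the class with Mpo or Irf8, which was not set by Ebf1 or Ly6d, the medians were 1.42% for the pro-B genes and 1.16% for the LMPP genes. A share of pro-B genes near that of the class with both was thus also found there. On both measures the 91 cells were the CLP class with the median nearest to LMPP, with wide overlap between classes. This did not hold for LMPP genes taken at 2-fold or more. These took a median of 6.74% in the 91 cells, 6.73% with Ebf1 alone and 6.66% in LMPP. Of 204 measured pro-B genes 66 were 2-fold or more lower and 1 higher in the 91 cells than in the other CLP cells, and of 125 LMPP genes 11 were higher and 0 lower, with medians of −0.67 and 0.24. Over all measured genes 6.29% were lower and 2.21% higher. The other CLP cells here include the class with Mpo or Irf8.

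**Figure D5:**
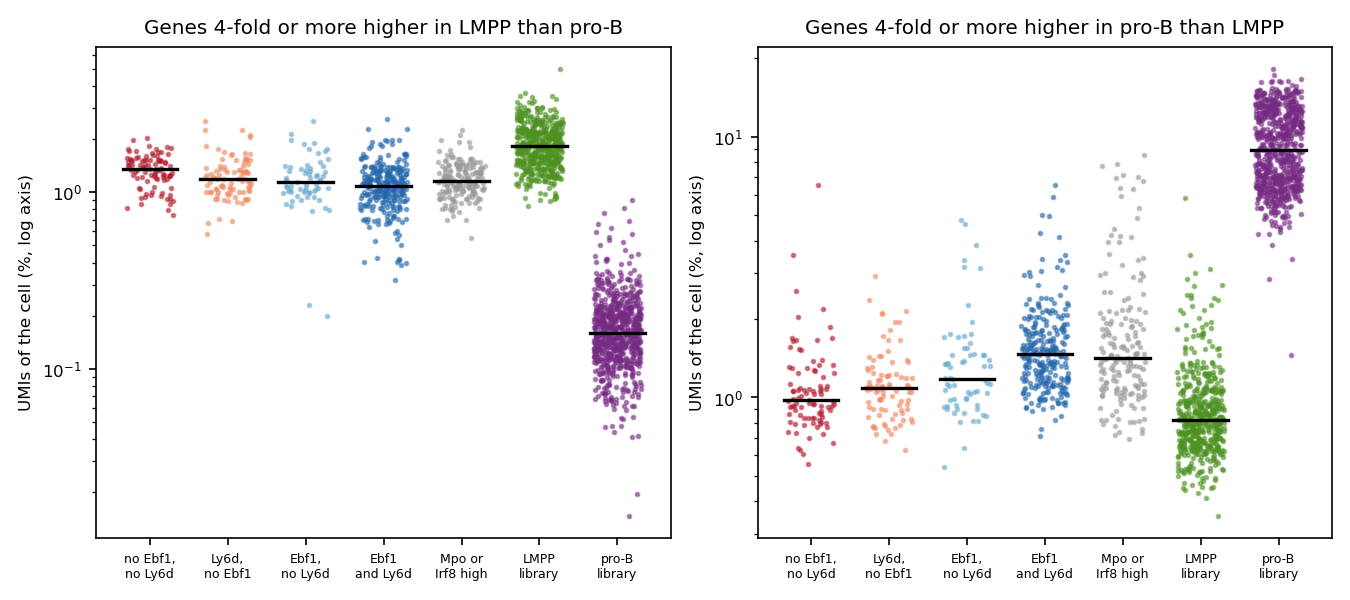
Share of each cell's UMIs (%, log axis) in 128 genes 4-fold or more higher in LMPP than in pro-B (left) and 227 higher in pro-B than in LMPP (right), the 4 genes of the choice left out. Points are cells, black lines medians. Cells without Ebf1 and Ly6d had medians of 1.35 and 0.974%, CLP cells with both 1.09 and 1.47%.

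Clustering of the 681 CLP cells with the 4 genes left out gave 5 clusters, and the 91 cells did not form one of their own. Clusters 1 and 2 held 39 of the 91 cells each, of 283 and 165 cells. Cluster 2 was led by Mycn and by the nucleolar protein gene Gnl3. Cluster 3, led by Rrm2, Nusap1 and Mki67, held 2 of the 91 cells among 95, and cluster 4, led by Cd79a, Vpreb2, Vpreb3 and Rag1, held 0 among 91. Cluster 5, led by Bcl11b, Ikzf3, Gata3 and Tcf7, held 11 of the 91 cells among 47, with 6 of the 7 cells of innate lymphoid genes. Within a library these clusters describe the same counts and add no separate evidence.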

How the data were processed

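The deposited files hold UMI counts, which per the submitters' processing notes the authors made with Cell Ranger and the mm10 build. Its version, its annotation and how barcodes became cells are not stated there. The 3 libraries were named from their labels. Of 979 CLP, 599 LMPP and 1123 pro-B barcodes, 681, 520 and 699 passed the limits on genes, mitochondrial UMIs and depth. Genes of immunoglobulin chains were not analysed here, and the labels' cultured iLS cells were not used here.

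Counts were summed over the cells of a group and divided by the group's total to give CPM. Ratios have exact conditional (Clopper-Pearson) intervals of 2 Poisson counts, levels exact Poisson intervals and shares exact Clopper-Pearson intervals. A count of 0 was replaced by a floor of 3 UMIs, and its fold is a bound. PCR and capture are not independent draws, so intervals cover counting error only. Cells were thinned without replacement to 4000 UMIs for shares. CLP cells were clustered with scanpy (Leiden) without the 4 genes of the choice, and doublets were called with scrublet and kept.

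The members, the 16 gene lists and the 10 marker lists were chosen with earlier results of these data known. Genes named are the 15 highest and 15 lowest ratios to the other CLP cells among genes with 50 CPM or more and a UMI in 10% or more of cells in the higher group (sort markers, immunoglobulin, mitochondrial, Rpl, Rps and unnamed models left out), the genes of 5 lists, and the 4 highest of each other list; a few of these are not reported here. Genes named against LMPP, pro-B or Ly6d-only cells, those leading clusters and those said to be were chosen after their values were seen. Alternatives changed the limits, the reference cells, the scaling, the depth and the thresholds. The work used scanpy 1.11.5, leidenalg 0.10.2 and scikit-learn 1.9.0 with SciPy 1.17.1, NumPy 2.4.6 and pandas 2.3.3 in Python 3.11.15, and matplotlib 3.10.9 for plots, and the ratio step was tested on simulated data.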

Additional observations from a re-analysis of the deposited data

How the results depend on the processing

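With 1 library per population every value rests on counting error alone, differences between mice were not measured, and at 31.9 UMIs per 50 CPM in the 91 cells small changes of low genes were not detectable. The share of CLP cells taken was 13.4% and was 7.34% with Irf8 at most 1 and Mpo at 0. Of genes called higher, 13 as reported, 33 were found with Irf8 at most 1 and Mpo 0, 29 without the cells with 3 or more UMIs of the innate lymphoid list, 25 after thinning, 48 with totals free of mitochondrial and ribosomal genes, 89 at 20 CPM, 5 at 100 CPM, and 5 without the 7 cells of innate lymphoid genes, also against CLP cells within the limits on Mpo and Irf8. Of genes called lower, 27 as reported, 41 were found without cells of the innate lymphoid list, 48 after thinning, 59 with totals free of mitochondrial and ribosomal genes, 107 at 20 CPM, 10 at 100 CPM and 16 against cells with Ly6d alone. Totals and the CPM threshold decide how many genes are compared. The cause of the other shifts was not tested. The median log2 ratio of the B regulators was −1.12 without the 7 cells, and that of the B surface genes −2.08 with Irf8 at most 1 and Mpo 0 and −0.26 against cells with Ly6d alone. The pro-B gene share differed by −0.14 percentage points with 8-fold genes in place of −0.38. These differences are on unlike scales. The 140 genes at 8-fold took medians of 0.240% in the 91 cells and 0.382% in the others, and the 227 at 4-fold 0.974 and 1.35%. Of 208 list medians 205 moved by less than 1.5-fold. Most of the medians were themselves smaller than this limit, so the count does not show that they held. Among lists counted as not moved, the stem and multipotent median ranged from 0.10 to 0.66 over the alternatives and the myeloid median from −0.16 to 0.38. Direction turned for Lmo4 without the 7 cells (log2 −0.048), for Mycn (−0.47), Mzb1 (0.038) and Myl4 (0.55) against cells with Ly6d alone, and for Ptcra with 6000 UMIs or more (−1.07) and with Irf8 at most 1 and Mpo 0 (−1.60). No paired analysis was possible because each population has 1 library.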

Other observations

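In the lists not yet described, most measured genes stayed within 2-fold of the other CLP cells. Over all measured genes 2.21% were 2-fold or more higher and 6.29% lower. None of 11 genes of interleukin-7 and STAT5 signalling passed 2-fold between the 91 cells and the other CLP cells (median log2 0.17). Il2rg, the common gamma chain of the receptor, stood at 103 CPM in the 91 cells and 65.6 CPM in the others (log2 0.65, 0.25 to 1.04), while Socs2 and Cish, targets of STAT5, had log2 ratios of 0.34 and −0.06. Of 9 homing and adhesion genes 1 was lower, S1pr1, with 1 UMI in the 91 cells and 27 in the others, and the median was −0.13. Of 4 measured E and Id protein genes 1 was higher, Id2, which rests on the 7 cells of innate lymphoid genes, and Id3 had 0 UMIs in the 91 cells and 24 in the others.

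The immediate early genes, which respond to handling, had a median of 0.22 with 0 of 10 past 2-fold. Fos stood at 227 CPM in the 91 cells and 187 CPM in the others, and Jun at 205 CPM in the 91 cells and 297 CPM in the others (log2 −0.53, −0.80 to −0.27), so 2 partners of one complex lay on opposite sides. Of 10 glycolytic genes 1 was higher, Hk2, a hexokinase, at 45.4 CPM in the 91 cells and 19.0 CPM in the others (log2 1.25), which was 0.62 without the 7 cells. The median of the list was 0.01. Of 9 measured interferon stimulated genes and 10 genes of quiescence and survival none passed 2-fold (medians −0.03 and −0.14). Cdkn1a, an inhibitor of the cell cycle, had a log2 ratio of −0.75 (−1.32 to −0.23). Of 6 measured MHC class II genes H2-Ab1 was lower, at 17.2 CPM in the 91 cells and 37.4 CPM in the others, and of 9 measured myeloid genes Prtn3 was higher, at 17.2 CPM from 11 UMIs in the 91 cells and 6.34 CPM in the others, with medians of 0.08 and 0.25.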
